A study of Homo sapiens with 46 samples.

Results

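The glycolysis and lactate genes comprised 31 of the 58735 genes in the deposited count table. They were chosen by gene symbol, as the transporters, enzymes and regulatory kinases that carry glucose to pyruvate and lactate. The rule uses no measured value, but it was set with earlier results of these data known. All 31 were found and all 31 passed the filter on low counts that left 20272 genes for testing. The study asked how cells respond when the translation of a single mRNA encoded by mitochondrial DNA is blocked. HEK293T cells, an established line of human embryonic kidney origin labelled wild type (WT), were grown in DMEM with glucose, serum, glutamine and pyruvate. They received for 48 h a chimera at 2 µM, delivered with Endo-Porter, in which the mitochondrial targeting presequence of Cox4 (pCox4) was joined to an antisense morpholino. The 11 chimeras were directed against ND1, ND2, ND3, ND4L and ND5 (complex I), CYTB (complex III), COX1, COX2 and COX3 (complex IV), and ATP6 and ATP8 (complex V). Control cells received pCox4 in click reaction buffer and no morpholino. Each condition had 4 libraries of poly(A) RNA, except COX2 (replicates 2, 3 and 4) and ND2 (replicates 1, 3 and 4) with 3 each. Replicates 1 and 2 (batch 1) and replicates 3 and 4 (batch 2) were made on different days with different reagents, and every treatment shared the same 4 control libraries.

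Glycolysis splits glucose into pyruvate in the cytosol and yields ATP without oxygen. Respiring mitochondria oxidize the pyruvate, whereas lactate dehydrogenase reduces it to lactate and regenerates the NAD+ that an earlier step of the pathway consumes. Cells whose respiratory chain is impaired are known to rely more on this route, and cultured lines fed with glucose use it heavily even when respiration is intact.

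Library depth was 18876395 to 28121898 counts, except for COX3 replicate 4 with 100698084. Of the mRNAs encoded by mitochondrial DNA that were themselves targeted, the log2 fold change ranged from -1.33 (MT-CO1 after COX1 silencing) to 1.02 (MT-ND2 after ND2 silencing). Of 8 markers of the HEK293 line, KRT8 was at 329 to 530 CPM (counts scaled to library size) over the 46 libraries, VIM at 362 to 507 CPM, PAX2 at 4.97 to 9.82 CPM and NEFM at 0.461 to 2.03 CPM. Of 10 markers of other cell types, 8 stayed at or below 1.42 CPM (COL3A1), while COL1A1 was at 20.5 to 31.2 CPM and ACTA2 at 7.07 to 15.4 CPM.

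The 31 genes spanned a wide range of abundance, given here as CPM per kilobase of gene length with the SD over the 46 libraries. The second part of the pathway was the most abundant, led by GAPDH at 657 ± 34.1, the dehydrogenase that consumes NAD+, and by the enolase ENO1 at 576 ± 48.1. PGAM1 (phosphoglycerate mutase) stood at 333 ± 30.1, TPI1 (triose phosphate isomerase) at 310 ± 31.1, and PKM (pyruvate kinase, the last step to pyruvate) at 255 ± 31.4. The lactate dehydrogenase subunit LDHA stood at 126 ± 11.1 and PGK1 (phosphoglycerate kinase) at 98.2 ± 6.36. On this scale enzymes of the first steps were lower, with the isomerase GPI at 80.6 ± 3.76 and the phosphofructokinase PFKP at 71.4 ± 3.93. The hexokinase HK1 was at 37.6 ± 2.00 and the glucose transporter SLC2A1 at 17.8 ± 1.28. The rank of GPI depends on the length used, which joins all annotated exons (10680 bases for GPI, 2700 for TPI1 and 2568 for PGAM1). Before division by length, the control means were 825 CPM for GPI, 820 CPM for TPI1 and 823 CPM for PGAM1. At the low end were the monocarboxylate transporter SLC16A3 at 0.179 ± 0.0418, and ALDOA, ALDOC, PFKFB2 and PFKFB4 between 1.07 and 2.04. The level of the aldolase ALDOA is uncertain, because 53.5% of its exon bases are shared with other annotated genes and the way such reads were counted is not given in the sources used here. The same holds for 33.4% of the exon bases of LDHB and 38.6% of those of PDK2.

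Among the listed genes, most steps were served mainly by 1 isozyme. Each share is of the listed genes of that family only, and any other isozyme was left out. In the 4 controls, measured per kilobase, ENO1 made up 97.3% ± 0.245 (SD, n = 4) of the enolase transcripts, SLC16A1 made up 99.7% ± 0.0952 of the lactate transporters and LDHA made up 85.3% ± 0.622 of the lactate dehydrogenase transcripts. HK1 held 77.5% ± 0.916 of the hexokinase pair, SLC2A1 held 77.5% ± 0.255 of the glucose transporter pair and PFKFB3 held 77.7% ± 3.55 of the kinases that make fructose 2,6-bisphosphate. The phosphofructokinase 1 family was more mixed, with PFKP at 60.5% ± 1.13, PFKL at 22.8% ± 0.997 and PFKM at 16.7% ± 0.383. Nearer to even were PGM1 and PGM2, at 16.1 and 17.8 CPM per kilobase. ALDOA and ALDOC were at 1.05 and 1.51. Their balance is uncertain, because 53.5% of the ALDOA exon bases are shared with other annotated genes. PDK3 made up 54.3% ± 2.43 of the pyruvate dehydrogenase kinases, which keep pyruvate from entering the mitochondrial oxidation route. Over all 46 libraries the LDHA share stayed between 81.9% and 87.5% and the HK1 share between 74.4% and 79.2%. The SLC2A1 share was 73.4% to 74.6% in the ND5 libraries and 77.3% to 77.8% in the controls. In every other group it was 75.1% or more, and this difference in share was not tested.

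Against control, silencing raised few of the 31 genes at a time, and none was called lower. A call required an adjusted p under 0.05 over all 20272 genes (edgeR quasi-likelihood test, batch in the model). In RNA from whole cultures a change in the level per cell and a change in the mix of cells cannot be told apart. After COX2 silencing 5 genes rose (HK1, PFKM, PFKP, ENO1 and LDHA), where 0.252% of all genes tested rose. After COX3 silencing 4 rose (HK2, PFKM, ENO1 and LDHA), against 0.178% of all genes. CYTB silencing raised HK2 and PFKP, 2 genes, against 0.38% of all genes. ND1 silencing raised LDHA, 1 gene, against 0.0493%, and ND4L silencing raised ENO2, 1 gene, against 0.118%. The percentage of all genes that fell was 0.217% for COX2, 0.128% for COX3, 0.168% for CYTB, 0.0395% for ND1 and 0.0296% for ND4L, and 0 of the 31 were among them.

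Another test and a block on replicate number kept each of these calls and added others, at higher shares of all genes. DESeq2 added HK2 and PGK1 in COX2 (2.41% of all genes it tested), PFKP in COX3 (1.22%), HK1, PFKM, ENO1 and ENO2 in CYTB (2.6%), PGK1 and ENO1 in ND1 (1.42%), and HK2, PFKM and PFKP in ND4L (3.13%), all of them higher. With the replicate number as a block, edgeR added HK2 in COX2 (adjusted p = 0.0498, with 1.09% of all genes called), PFKM in CYTB (adjusted p = 0.0431, with 1.08%) and PFKP in ND4L (adjusted p = 0.0437, with 0.523%), and none in COX3 (0.779%) or ND1 (0.385%).

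No member was called after silencing of ATP6, ATP8, COX1, ND2, ND3 or ND5, where edgeR called 0.00987%, 0.0641%, 0.0543%, 0.0247%, 0.00987% and 0.158% of all genes in either direction. At an unadjusted p under 0.05 the higher members numbered 10 for ATP6 (5.39% of all genes tested), 11 for ATP8 (6.21%), 9 for COX1 (4.58%), 5 for ND2 (2.34%), 2 for ND3 (1.62%) and 8 for ND5 (4.78%). Of these 6, only ND5 had a lower member at that level (4.53% of all genes), ALDOC, with a log2 fold change of -0.38 ± 0.14 (SE). DESeq2 called 1 member for ATP6 (PFKP, with 0.167% of all genes it tested), 4 for ATP8 (HK2, PFKP, PGK1 and LDHA, with 0.588%), 1 for COX1 (PFKP, with 0.221%) and 0 for ND2 (0.0247%), ND3 (0.0148%) and ND5 (0.629%). With the replicate number as a block, 1 member was called for ATP8, LDHA, at an adjusted p of 0.0187 (edgeR), where 0.178% of all genes were called.

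The sizes of the called changes lay between 0.13 and 0.28 on the log2 scale. Over the 31 genes the median log2 fold change was 0.12 for COX2, 0.10 for ATP8, 0.08 for COX3, ATP6 and ND1, 0.07 for CYTB, 0.06 for COX1 and ND2, 0.03 for ND3 and ND4L, and 0.02 for ND5. The largest single values belonged to low genes and were not called, namely 0.59 ± 0.24 for SLC16A3 in COX1 (adjusted p = 0.578, edgeR), -0.38 ± 0.14 for ALDOC in ND5 and 0.34 ± 0.16 for ALDOA in COX2 (adjusted p = 0.334). The median over all genes tested lay between -0.003158 and 0.004037 in these comparisons. From 20 of the 31 (ND5, 50.3% of all genes) to 28 of the 31 (ATP8, 50.6% of all genes, and COX2, 50.9%) were above control. These genes share libraries and are not independent of each other, so the counts describe them only.

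**Figure D1:**
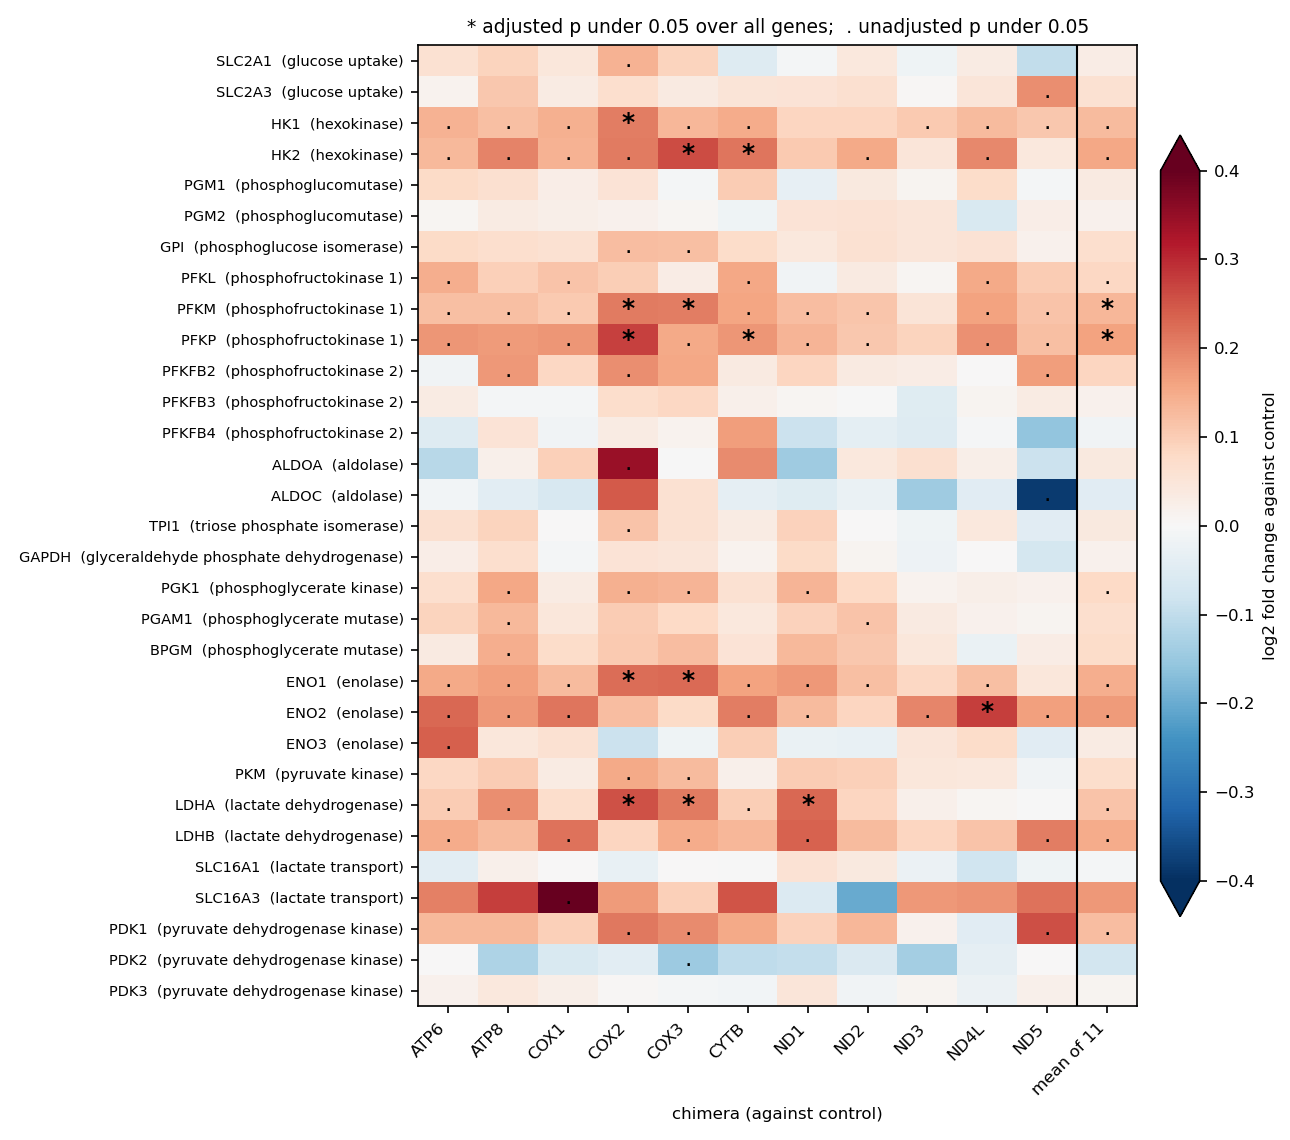
Log2 fold change of each gene (rows, by step of the pathway) in each chimera and in the mean of the 11 chimeras against control (columns), from edgeR with the batch in the model. Stars mark an adjusted p under 0.05 over all 20272 genes and dots an unadjusted p under 0.05. The stars sit in HK1, HK2, PFKM, PFKP, ENO1, ENO2 and LDHA, and all are increases. Cells beyond 0.4 in size take the end colour.

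At the entry of the pathway, the glucose transporters SLC2A1 and SLC2A3 were called in no comparison with control. Hexokinases phosphorylate glucose and so trap it in the cell. HK1 (ENSG00000156515, chr10:69269984-69401884) was at 221, 229, 214 and 210 CPM in control replicates 1 to 4. It was at 252, 252 and 246 CPM in the 3 COX2 libraries, above every control. HK1 rose after COX2 silencing by a log2 fold change of 0.20 ± 0.050 (SE; adjusted p = 0.0396, edgeR), a call kept in 1 of the 7 fits that left out 1 of these libraries (adjusted p up to 0.231). HK2 (ENSG00000159399, chr2:74833981-74893359), the isozyme that hypoxia and growth signals are known to induce, was at 64.0, 63.7, 62.5 and 54.6 CPM in the controls. It was at 78.7, 72.9, 68.0 and 73.2 CPM in the COX3 libraries and at 74.4, 76.0, 69.1 and 64.3 CPM in the CYTB libraries. Each COX3 and CYTB library was above all 4 controls. The log2 fold change of HK2 was 0.26 ± 0.053 for COX3 (adjusted p = 0.0115, edgeR) and 0.21 ± 0.053 for CYTB (adjusted p = 0.0423, edgeR). Control replicate 4 was the lowest control for both genes, and PGM1, PGM2 and GPI, which interconvert hexose phosphates, were called in no treatment.

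Phosphofructokinase 1 commits the sugar to glycolysis, and 2 of its 3 subunits rose in at least 1 treatment. PFKM (ENSG00000152556, chr12:48105139-48146404), the muscle type subunit, was at 133, 128, 130 and 129 CPM in the controls. It was at 144, 160 and 152 CPM after COX2 silencing and at 149, 141, 155 and 156 CPM after COX3 silencing. All 7 of these libraries were above all 4 controls, and batch 2 was farther from control than batch 1. PFKM rose by 0.21 ± 0.045 after COX2 silencing (log2 fold change ± SE; adjusted p = 0.0199) and by 0.20 ± 0.042 after COX3 silencing (adjusted p = 0.0135, both edgeR). Without the filter on low counts the COX2 call was lost (adjusted p = 0.0601). The batch 1 libraries alone gave 0.14 and 0.15, and the batch 2 libraries 0.26 and 0.25.

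PFKP (ENSG00000067057, chr10:3066333-3137712), the platelet type subunit and the main one in these cells, was at 320, 322, 308 and 298 CPM in the controls. After COX2 silencing it was at 378, 384 and 371 CPM. After CYTB silencing it was at 352, 358, 341 and 359 CPM. Neither group overlapped the controls. The log2 fold change was 0.27 ± 0.048 for COX2 (adjusted p = 0.00558) and 0.18 ± 0.044 for CYTB (adjusted p = 0.0442, edgeR). The CYTB call was kept in 2 of the 8 fits that left out 1 CYTB or control library. It was lost with library sizes from genes outside mitochondrial DNA. Of the 42 treated libraries, 40 were above both controls of their batch for PFKP and 0 were below both, a count that 0.217% of all genes reached or passed. All 42 were set against the same 2 controls per batch, and control replicate 4 was the lowest for PFKP, so such counts do not speak for each treatment on its own. PFKL, the liver type subunit, was above both controls in 28 of 42 (at least as many in 9.75% of all genes) and was called in none. PFKFB2, PFKFB3 and PFKFB4, whose product fructose 2,6-bisphosphate activates phosphofructokinase 1, were called in no treatment.

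In the middle of the pathway, no gene from aldolase to phosphoglycerate mutase was called against control by edgeR, whereas DESeq2 called PGK1 higher in ATP8 (adjusted p = 0.0292), COX2 (0.0453) and ND1 (0.0450). GAPDH, often used as a reference transcript, was between 90.0% and 113% of the mean of its batch controls, with a median of 101% over the 42 treated libraries. TPI1 had a median of 103%, PGK1 of 105%, PGAM1 of 105% and BPGM of 104%. PGK1 was above both controls of its batch in 33 of 42 libraries (at least as many in 3.84% of all genes), and its largest fold changes were those of ATP8 (0.15 ± 0.042, adjusted p = 0.131, edgeR) and COX2 (0.14 ± 0.045, adjusted p = 0.119). The aldolases ALDOA and ALDOC were near 1 CPM per kilobase and ranged from 70.3% to 145% and from 65.8% to 136% of control. The level of ALDOA is uncertain because of its shared exon bases.

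Enolase makes phosphoenolpyruvate, and edgeR called ENO1 in COX2 and COX3 and ENO2 in ND4L, while DESeq2 called both in CYTB (adjusted p = 0.0466 and 0.0366). ENO1 (ENSG00000074800, chr1:8861000-8879250) was at 3016, 2962, 2692 and 2458 CPM in the controls. It was at 3602, 3125 and 2840 CPM after COX2 silencing and at 3523, 3201, 3101 and 3168 CPM after COX3 silencing. The COX3 libraries were all above the 4 controls, whereas the lowest COX2 library lay within the control range and above both controls of its own batch. ENO1 rose by a log2 fold change of 0.22 ± 0.053 in COX2 (adjusted p = 0.0316) and by 0.23 ± 0.049 in COX3 (adjusted p = 0.0186, edgeR). ENO2 (ENSG00000111674, chr12:6913745-6923698), the neuron type enolase, was at 48.5, 54.7, 48.0 and 46.1 CPM in the controls and at 62.8, 64.2, 57.8 and 54.6 CPM after ND4L silencing. The lowest ND4L library was just under the highest control and above both controls of its batch. ENO2 rose after ND4L silencing by 0.28 ± 0.059 (adjusted p = 0.0222, edgeR), where ENO1 had a log2 fold change of 0.12 ± 0.049 (adjusted p = 0.245). ENO2 in the COX2 and COX3 groups was at 50.6 to 55.8 and 47.0 to 55.6 CPM, overlapping the controls. Whether the enolases differed between treatments was covered by the joint test among the 11 treatments, in which neither was called. ENO3 and PKM were called in no treatment.

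**Figure D2:**
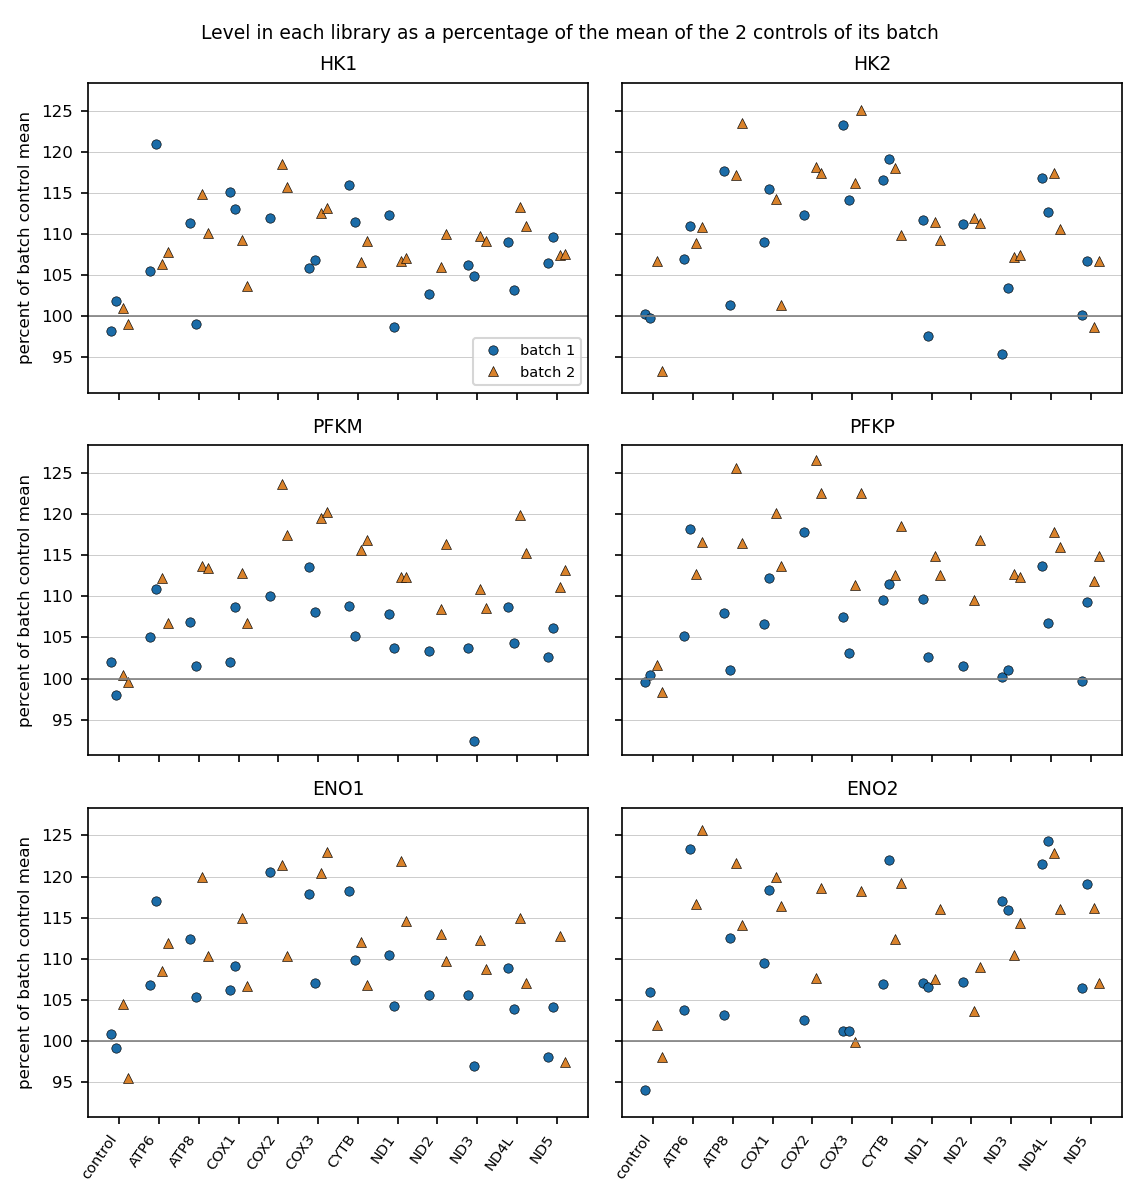
Level of HK1, HK2, PFKM, PFKP, ENO1 and ENO2 in each library, as a percentage of the mean of both controls of its batch (y axis), by group (x axis), with circles for batch 1 and triangles for batch 2. Most treated libraries lie above 100%, with HK1 and PFKP above both controls of their batch in 40 of 42 libraries, PFKM and ENO1 in 39, HK2 in 37 and ENO2 in 36 (36 or more in 1.67% of all genes).

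LDHA, which makes the lactate dehydrogenase subunit that favours lactate formation, showed the clearest differences between treatments. The gene (ENSG00000134333, chr11:18394388-18408425, plus strand) has no exon bases shared with another annotated gene. It was at 760, 766, 714 and 667 CPM in control replicates 1 to 4. It was at 937, 819 and 801 CPM after COX2 silencing, at 886, 833, 819 and 814 CPM after COX3 silencing, and at 875, 895, 875 and 763 CPM after ND1 silencing. The COX2 and COX3 libraries were all above the 4 controls, and ND1 replicate 4 lay within the control range but above both controls of its batch. The log2 fold change was 0.25 ± 0.048 for COX2 (adjusted p = 0.00558), 0.21 ± 0.045 for COX3 (adjusted p = 0.0186) and 0.23 ± 0.045 for ND1 (adjusted p = 0.0138, edgeR).

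The remaining treatments had smaller log2 fold changes of LDHA, and edgeR called none of them against control. ATP8 libraries were at 865, 918, 771 and 758 CPM, and the log2 fold change of 0.19 ± 0.045 had an adjusted p of 0.0939 (edgeR). The ATP6 libraries were at 815, 857, 732 and 720 CPM, the CYTB libraries at 825, 821, 767 and 703 CPM, the COX1 libraries at 799, 825, 713 and 716 CPM, and the ND2 libraries at 813, 757 and 704 CPM. Their log2 fold changes lay between 0.07 (COX1) and 0.10 (ATP6), and none was called. The ND3 libraries were at 801, 753, 726 and 670 CPM, the ND4L libraries at 746, 793, 717 and 666 CPM, and the ND5 libraries at 751, 730, 755 and 660 CPM. These 3 groups overlapped the controls, as did the ATP8, ATP6, CYTB, COX1 and ND2 groups. The log2 fold changes of ND3, ND4L and ND5 were 0.02 ± 0.045, 0.01 ± 0.045 and -0.00302 ± 0.0448.

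**Figure D3:**
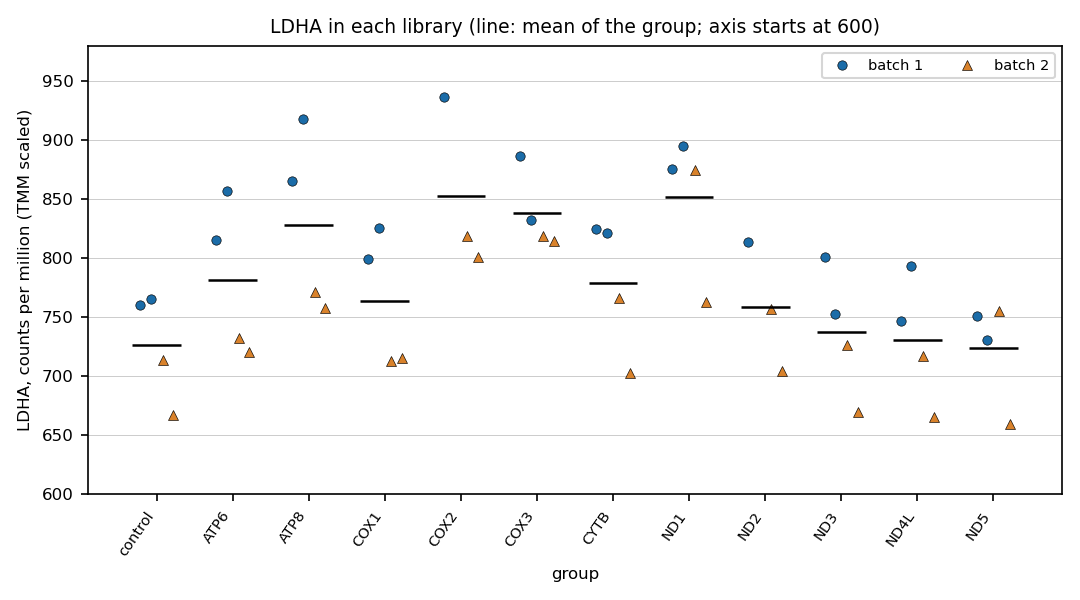
LDHA in CPM (y axis, starting at 600) in each library, by group (x axis), with circles for batch 1, triangles for batch 2 and a line at the mean of the group. Libraries of COX2, COX3 and ND1 lie at 763 to 937 CPM. Every treatment except COX2 and COX3 holds a library within the control range (667 to 766 CPM).

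In a joint test that leaves the controls out of the contrast, edgeR called 1 of the 31 genes, LDHA, as different among the 11 treatments (adjusted p = 0.000117), where 0.306% of all genes were called. DESeq2 called 3 in that test, LDHA, PGK1 (adjusted p = 0.00735) and HK2 (adjusted p = 0.0153), where it called 2.05% of all genes. The LDHA call was kept when each of the 42 treated libraries was left out in turn, with adjusted p between 1.34e-05 and 0.000551. It was lost without a batch term and in each batch alone (adjusted p = 0.133 in batch 1 and 0.797 in batch 2). Each treatment was also set against the other 10. LDHA was lower after ND5 silencing than in the other 10 treatments, with a log2 fold change of -0.13 ± 0.034 (adjusted p = 0.0451, edgeR), the 1 call that edgeR made among the 31 genes, where 0.296% of all genes were lower. That call was lost in 22 of 42 fits that left out 1 treated library, among them ND5 replicates 1, 2 and 4 (log2 fold change -0.18 to -0.11 over all 42). It was also lost without a batch term and with library sizes from genes outside mitochondrial DNA. The other differences were 0.15 ± 0.037 for COX2 (adjusted p = 0.200), 0.13 ± 0.033 for ND1 (0.117), 0.10 ± 0.033 for COX3 (0.638), -0.10 ± 0.034 for ND3 (0.823) and -0.12 ± 0.034 for ND4L (0.211). With the replicate number as a block, LDHA was called higher after ND1 silencing as well (adjusted p = 0.0447, with 0.138% of all genes called), so that 2 of these differences were called. DESeq2 called 5 of them. It called LDHA (adjusted p = 0.00991), GAPDH (-0.098 ± 0.030, adjusted p = 0.0406) and SLC2A1 (-0.14 ± 0.043, adjusted p = 0.0414) lower in ND5 (2.7% of all genes), LDHA higher in ND1 (adjusted p = 0.0455, with 0.32%) and LDHA lower in ND4L (adjusted p = 0.0444, with 0.597%).

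By complex, LDHA was lower in the mean of the 5 complex I treatments than in the mean of the 3 complex IV treatments by -0.11 ± 0.024, at an adjusted p of 0.0501 (edgeR), and was not called. At that test 0.0691% of all genes were called, and 11 of the 31 members were lower and 0 higher at an unadjusted p under 0.05, against 3.53% and 2.86% of all genes. DESeq2 gave LDHA an adjusted p of 0.0138 (0.102% of all genes called) and the block on replicate number 0.00591 (0.138% called). Against control, the LDHA log2 fold changes of the 5 complex I treatments ran from -0.00302 (ND5) to 0.23 (ND1). Of the complex IV treatments, COX1 and COX3 lay within that range and COX2 above it. The differences within each complex were not tested on their own.

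**Figure D4:**
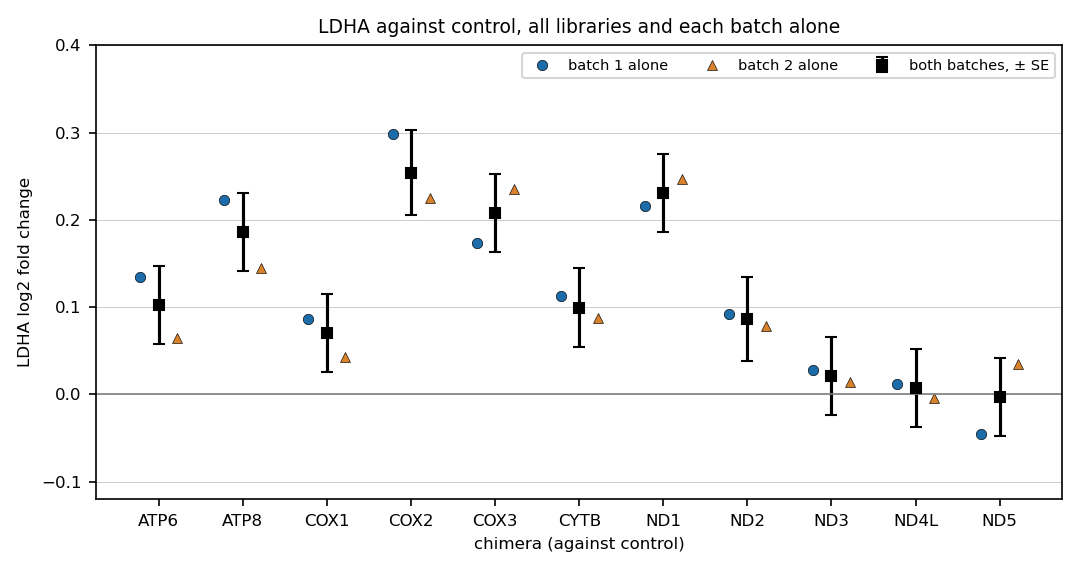
LDHA log2 fold change of each chimera against control (y axis) from all libraries (squares, ± SE) and from each batch alone (circles, batch 1; triangles, batch 2). The squares run from 0.25 (COX2) to -0.00302 (ND5). In COX2, COX3 and ND1 the batches gave 0.30 and 0.23, 0.17 and 0.24, and 0.22 and 0.25.

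Promoter sequence is shown for the called genes that hold the letters ACGTG, the core of the sequence that hypoxia-inducible factors are known to bind, among the 250 bases before the start site. Sequences are from RefSeq (GRCh38.p14), matched by symbol for 28 of the 31 genes and taken at the first start listed for each gene. ACGTG was searched on both strands (CACGT is its other strand), and each CACGTG, the sequence that MYC family factors are known to bind, counts as 2 overlapping matches. LDHA held 5 matches, 4 of them in 2 copies of CACGTG, beginning at -185, -184, -87, -86 and -73 from the start site, HK2 held 2 and ENO2 held 1. HK1, PFKM, PFKP and ENO1 held 0. In all, 11 of 28 members held ACGTG, against 18.7% of the 27305 genes in the table, and 4 of 28 held CACGTG, against 6.49%. Matches are in capitals, and they describe these letters only. The regions are chr11:18394313-18394562 (LDHA), chr2:74833877-74834126 (HK2) and chr12:6914330-6914579 (ENO2), all on the plus strand. The RefSeq starts differ from those of the genes as counted. By the gene coordinates given above, LDHA and HK2 begin within these regions and ENO2 before its region, so some matches lie inside the counted genes.
LDHA: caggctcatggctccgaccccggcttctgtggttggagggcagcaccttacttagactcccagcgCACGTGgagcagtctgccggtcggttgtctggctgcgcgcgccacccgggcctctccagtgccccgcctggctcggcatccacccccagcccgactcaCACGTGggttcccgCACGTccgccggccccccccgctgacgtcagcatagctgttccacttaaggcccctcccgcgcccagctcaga
HK2: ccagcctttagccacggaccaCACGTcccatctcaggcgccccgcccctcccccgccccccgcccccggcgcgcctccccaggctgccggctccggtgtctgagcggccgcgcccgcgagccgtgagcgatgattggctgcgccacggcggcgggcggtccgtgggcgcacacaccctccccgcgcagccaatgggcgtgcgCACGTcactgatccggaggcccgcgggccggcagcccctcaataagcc
ENO2: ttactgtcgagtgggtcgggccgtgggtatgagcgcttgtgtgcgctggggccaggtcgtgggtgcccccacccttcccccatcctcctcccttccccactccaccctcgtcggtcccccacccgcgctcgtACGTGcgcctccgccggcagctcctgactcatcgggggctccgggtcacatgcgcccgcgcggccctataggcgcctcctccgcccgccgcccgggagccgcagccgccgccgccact

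The second lactate dehydrogenase subunit, LDHB, was at 64.0, 58.5, 60.8 and 56.1 CPM in the controls and at 68.9, 65.7, 78.1 and 69.1 CPM after ND1 silencing. All 4 ND1 libraries were above the 4 controls, and the log2 fold change of 0.23 ± 0.072 was not called (adjusted p = 0.145, edgeR). In ND5, where LDHA was at the control level, LDHB was at 70.9, 61.8, 80.2 and 63.0 CPM (0.21 ± 0.072, adjusted p = 0.294). Among lactate transporters, SLC16A1 stayed between 91.8% and 109% of control. SLC16A3 was low, with libraries between 47.8% and 171% of control. It was at 0.887, 1.90, 1.24 and 1.66 CPM in the controls and at 1.84, 2.13, 2.42 and 2.17 CPM in the COX1 libraries, the lowest of which lay within the control range.

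The pyruvate dehydrogenase kinases were called in no comparison. PDK1, a known target of hypoxia-inducible factors, was above both controls of its batch in 31 of 42 libraries (at least as many in 5.71% of all genes), with its largest log2 fold change after ND5 silencing (0.26 ± 0.078, adjusted p = 0.192, edgeR). PDK2 went the other way, below both controls in 25 of 42 (at least as many in 14.6% of all genes) and above both in 4, with a log2 fold change of -0.07 ± 0.054 in the mean of the treatments (adjusted p = 0.638). PDK3 had a median of 101% of control.

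In the mean of the 11 treatments against control, PFKP rose by 0.16 ± 0.033 (adjusted p = 0.0232) and PFKM by 0.13 ± 0.032 (adjusted p = 0.0389, edgeR), 2 genes of the 31, where 0.178% of all genes rose. Without the filter on low counts the PFKM call was lost (adjusted p = 0.0817). HK1, HK2, ENO1, ENO2 and LDHA had log2 fold changes of 0.13, 0.15, 0.14, 0.17 and 0.11, with adjusted p of 0.0820, 0.0655, 0.0596, 0.0678 and 0.111. Blocked by replicate number, 6 genes were called (HK2, PFKM, PFKP, ENO1, ENO2 and LDHA), where 0.75% of all genes were, and DESeq2 called 7, the same 6 and HK1, where it called 2.08% of all genes. The median over the 31 genes was 0.07 and over all genes -0.001307.

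These calls against control rested on few control libraries. Control replicate 4 was the lowest of the 4 controls for LDHA, ENO1, PFKP, HK1, HK2 and ENO2, and without it 0 members were called in COX2, COX3, CYTB, ND1, ND4L or the mean (PFKP in COX2 then had an adjusted p of 0.0528, edgeR, and a log2 fold change of 0.25). The COX2 count of 5 was 1 without COX2 replicate 2, 2 without COX2 replicate 3, and 3 without control replicate 2 or 3. The COX3 count of 4 was 0 without COX3 replicate 1 or 4, and 2 without COX3 replicate 3 or control replicate 2. The CYTB count of 2 was 0 without CYTB replicate 1 or 2 or control replicate 2 or 3, and 1 without CYTB replicate 3 or 4. The ND1 call was lost without ND1 replicate 3 or control replicate 1, and the ND4L call of ENO2 without ND4L replicate 1 or 3 or control replicate 1 or 3. For ND4L, 3 members were called without ND4L replicate 2 (PFKM, PFKP and ENO2), and without control replicate 1 the calls were PFKM and PFKP instead of ENO2 (adjusted p = 0.0528). Of the 7 fits that left out a COX2 or control library, HK1 was called in 1, PFKM and ENO1 in 3, LDHA in 5 and PFKP in 6. Of the 8 such fits for COX3, LDHA was called in 2, ENO1 in 3, PFKM in 4 and HK2 in 5. In the mean of the treatments PFKP was called in 43 of the 46 fits that left out 1 library and was lost without control replicate 2, 3 or 4, and PFKM was called in 28 of 46 (adjusted p between 0.0301 and 0.439). Over these fits the log2 fold change of every called gene kept its sign.

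Counting libraries that lay above both controls of their batch asks less of the spread. Every library did so for 15 members in COX2 (11.3% of all genes), 13 in COX3 (5.58%), 12 in ND2 (6.28%), 10 in ND1 (6.46%), 9 in ATP6 (4.99%), 8 in CYTB (7.09%), 7 in ATP8 (5.05%), 6 in COX1 (3.91%), 6 in ND4L (6.14%), 4 in ND5 (4.41%) and 2 in ND3 (2.39%). Every library was below both controls for 1 member, SLC16A1 in ND4L (5.63% of all genes), and for 0 members in the other 10 treatments (2.32% of all genes in ND3 to 9.89% in COX2). ENO1 was among those above in 9 treatments, all but ND3 and ND5, and ENO2 was among those above in 7, all but ATP6, ATP8, COX2 and COX3. Both were above in 5, COX1, CYTB, ND1, ND2 and ND4L. The enolases did not stand apart in this, since HK1 and PFKP were among those above in 9 treatments, PFKM in 8 and HK2 in 7. All treatments were set against the same 2 controls per batch, so these counts of treatments are not independent. The share of all genes that reached such counts is not given here, and the counts describe these genes only.

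Few genes around the pathway were called. Of 35 other pathway genes (27 tested), 11 pentose phosphate genes (11 tested) and 24 hypoxia targets outside glycolysis (23 tested), 0 were called in any treatment against control, with 4 of the other pathway genes, 1 pentose phosphate gene and 3 hypoxia targets higher at an unadjusted p under 0.05 in COX2 (edgeR), as were 7.42% of all genes, and 1 hypoxia target lower, as were 6.16%. In CYTB, where 7.66% of all genes were higher and 6.01% lower at that level, 3 of the other pathway genes were higher and 3 lower, and 3 pentose phosphate genes were higher (H6PD, RPIA and TALDO1, 0.10 to 0.13). Of 12 transcription factors and kinases that regulate glycolytic genes, 1 was called, ESRRA, a nuclear receptor of oxidative metabolism, which rose after CYTB silencing (0.33 ± 0.082, adjusted p = 0.0396). At an unadjusted p under 0.05, 2 of the 12 were higher in CYTB (ESRRA and MYC) and 3 lower. Among 10 markers of other cell types, of which 5 passed the filter, ACTA2 fell after COX2 silencing by 0.57 ± 0.14 (adjusted p = 0.0352) and after COX3 silencing by 0.56 ± 0.12 (adjusted p = 0.0186), the treatments with the most called members. The summed level of the 10 markers was 35.6 to 35.7 CPM in COX2, 33.5 to 38.9 CPM in COX3 and 34.2 to 37.5 CPM in CYTB. It was 31.4 to 40.1 CPM in ND1, 37.4 to 44.2 CPM in ND4L and 36.4 to 44.4 CPM in the controls. The median library held 0 counts of CD3E, HBB and LYZ. All 5 tested markers were below control in CYTB (median log2 fold change -0.35) and in ND2 (-0.20). In each of these 1 was lower at an unadjusted p under 0.05 and 0 were called. In ATP6 and ND5, 4 of the 5 were above control. The remaining marker in ND5 (log2 fold change -0.41) was lower at an unadjusted p under 0.05 (edgeR). So was 1 marker each in ATP8 and ND1. ATP8 and ND5 had 0 called members. Whether cells of any other type were present was not tested, nor was the part of ACTA2 in the result.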

How the data were processed

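Poly(A) RNA of HEK293T cells was sequenced in 46 libraries of 12 conditions. The authors deposited raw counts of reads per gene with a gene length in bases. The submitters' processing notes name GRCh38.p12, R 4.3.0, DESeq2 1.40.2 and limma 3.56.2, while aligner, counter and strand setting are not given in the sources used here. Of the 58735 genes listed, 58724 matched GENCODE 29 in identifier, start and end. The study describes the libraries as biological replicates.

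Counts were fitted in R 4.3.3 with edgeR 4.0.16 (TMM scaling, filterByExpr with a minimum count of 10, quasi-likelihood F test, terms for condition and batch, all 46 libraries), with Benjamini-Hochberg adjustment over all 20272 genes tested. The SE of a log2 fold change was taken from its F statistic, and CPM values were scaled by TMM. Levels were compared between genes per kilobase of the deposited length, with isozyme shares of raw counts as an alternative. The fit was also run on simulated data, the outcome of which is not given here. DESeq2 1.42.0 and the other settings were alternatives.

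All 242 pairs of libraries with the same replicate number in different conditions correlated in their deviations from the condition means (lowest r = 0.168), and a replicate block was fitted as an alternative. They hold the batch, since libraries of different numbers in 1 batch correlated too (mean r = 0.510 for replicates 1 and 2, with 0.467 and 0.561 for same numbers, and 0.390 for replicates 3 and 4, with 0.462 and 0.568). With the batch removed the mean for same numbers was 0.0094 in batch 1 (lowest -0.280) and 0.176 in batch 2 (lowest -0.170). Full statistics are given for members called over all genes, and values in every library for at most 8 members, those called in most treatments and then by the p of the mean contrast. The members and lists were chosen with earlier results of these data known.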

Additional observations from a re-analysis of the deposited data

Results flagged for a closer look

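Among 82 groups of 4 libraries examined, 4 held a library far from the other 3, measured by its gap relative to the range of the group, and chance alone marks about 1 in 20 groups. HK1 was at 120.958% of the batch control in ATP6 replicate 2, where the other 3 ATP6 libraries were at 105% to 108%. ENO2 was at 118.29% in COX3 replicate 4, with the others at 99.8% to 101%, and at 116.101% in ND1 replicate 4, with the others at 107% to 108%. The total count of COX3 replicate 4 was 100698084, and drawing it down to the depth of the other libraries left the number of called members unchanged in every comparison. Differences between treatments were marked only for LDHA, by the edgeR tests. Its log2 fold change in ND5 against the other 10 treatments was -0.129753, with ND5 libraries at 751, 730, 755 and 660 CPM, and its adjusted p among the 11 treatments was 0.000117348 (edgeR).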

How the results depend on the processing

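No called gene changed sign under any alternative. Counts of called members moved as follows, the cause not being tested. Without a batch term 1 member was called in COX2 and 0 in COX3, CYTB, ND1, ND4L, the mean of the treatments, each treatment against the other 10, and among treatments. In each batch alone 0 were called in all of these, except 1 in the mean in batch 2, with fewer libraries in each fit. DESeq2 called 1 in ATP6, 4 in ATP8, 1 in COX1, 6 in CYTB, 3 in ND1, 4 in ND4L, 7 in the mean, 5 against the other 10, 3 among treatments (LDHA, PGK1 and HK2) and 1 in complex I against IV. Without a filter the counts were 1 in ATP6, 2 in ATP8, 3 in ND1, 2 in ND4L, 3 against the other 10, 2 among treatments and 2 in complex I against IV, and PFKM was lost in COX2 and in the mean. With only the libraries compared they were 6 in CYTB, 3 in ND1 and 2 in ND4L. Library sizes from genes outside mitochondrial DNA gave 1 in CYTB (PFKP lost) and 0 against the other 10. The replicate block gave 1 in ATP8, 2 in ND4L, 6 in the mean, 2 against the other 10 and 1 in complex I against IV, and within 1.5 times the count elsewhere, with HK2 added in COX2 and PFKM in CYTB. RLE size factors moved no count by more than 1.5 times. Leaving out 1 library at a time gave 0 to 5 in COX2, 0 to 4 in COX3, 0 to 3 in CYTB, 0 to 1 in ND1, 0 to 3 in ND4L, 0 to 4 in the mean, 0 to 1 against the other 10, 0 to 1 in complex I against IV, 1 throughout among treatments, and 0 throughout in ATP6, ATP8, COX1, ND2, ND3 and ND5. As shares of raw counts without length, PFKP in the controls was 47.3%, ENO1 97.8%, LDHA 92.4% and PDK3 40.0%. The leave-one-out ranges of the length-scaled shares were 77.1% to 77.7% for HK1, 60.0% to 60.9% for PFKP, 97.2% to 97.4% for ENO1, 85.0% to 85.5% for LDHA and 53.2% to 54.9% for PDK3. At this depth low members had larger errors, with an SE of 0.14 to 0.15 for the log2 fold change of ALDOC, PFKFB4 and ALDOA and 0.25 for SLC16A3 in ND5, against 0.0448 for LDHA.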
